A study of Drosophila melanogaster with 9 samples.

Results

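The comparison sets pupal eyes that overexpress Bonus (Bon) while yorkie (yki) is knocked down, called Bon+yki-RNAi, against eyes that overexpress Bon alone, called Bon. Its members are all 3 libraries of each genotype, chosen by sample title, so 6 of the 9 libraries of the series entered. The 3 mCherry control libraries stayed out of the fit and of the scaling. Of 17558 genes in the deposited tables, 10852 passed a filter on low counts and were tested. Of the 6706 genes not tested, 1779 had no count in any of the 6 libraries.

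Bon+yki-RNAi flies had 1 copy of UAS-bon-mCherry and carried pGMR-GAL4 over UAS-yki-RNAi, a Bloomington stock (BDSC). Bon flies had 1 copy of the same Bon transgene and carried pGMR-GAL4 over a chromosome written as +. Both groups therefore carry Bon-mCherry and the GMR-GAL4 driver, which acts in the differentiating eye behind the morphogenetic furrow and not in the whole animal. Eyes were collected 40 to 41 h after puparium formation (APF) at 25 °C, with 60 eyes and 100 ng of total RNA behind each library. Neither sex nor a non-targeting RNAi control within Bon eyes is named in the labels. According to the series design, ectopic hairs (trichomes) begin to form in Bon eyes at this stage, and the comparison asks what Bon does to transcription without normal Yki.

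Yki is the transcriptional coactivator at the end of the Hippo pathway. Upstream cadherins and scaffolds feed the kinases Hpo and Wts, which phosphorylate Yki and keep it out of the nucleus, and nuclear Yki binds DNA through partners such as Sd. Several of its known targets, ex and kibra among them, are themselves upstream inhibitors of Yki, which forms a negative feedback loop. Bon is the fly member of the TIF1 family of transcriptional cofactors. Trichomes are actin-filled extensions of epidermal cells that the normal eye does not form, and they are coated by an apical matrix of zona pellucida (ZP) domain proteins and cuticle.

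Levels are given as CPM, each count divided by the library's total after TMM scaling and put on the usual CPM scale, for the 3 libraries of each group in the order of their replicate numbers. A gene is said to have risen or fallen in Bon+yki-RNAi eyes where the adjusted p of edgeR's quasi-likelihood test was under 0.05, adjusted by the Benjamini-Hochberg method over all tested genes. Every log2 fold change is Bon+yki-RNAi over Bon, with n = 3 in each group. Where ± follows a log2 fold change, it gives a standard error computed from that value and the F statistic of the test. After a mean CPM, ± gives the SD. The design calls the replicates biological and says no more of their origin, so the p-values measure the spread between these samples. RNA of pooled eyes does not tell fewer cells of a type from less RNA per cell, which holds for every gene below.

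The knockdown was checked first. The RNAi target yki (FBgn0034970, BDGP6 chromosome arm 2R, 24065975 to 24068485) had 29.6, 29.96 and 29.9 CPM in Bon+yki-RNAi eyes, against 63.3, 63.7 and 63.7 CPM in Bon eyes. Every library of the knockdown lay below every Bon library, with a log2 fold change of -1.09 ± 0.03 (adjusted p = 3.2e-10), so 0.469 of the Bon level remained as mRNA. The gene bon (FBgn0023097, 3R, 20593139 to 20612540), whose count holds transgene and endogenous reads alike, had 4317, 4241 and 4211 CPM in Bon+yki-RNAi eyes, against 5138, 5253 and 4791 CPM in Bon eyes. Thus bon also fell, by a log2 fold change of -0.25 ± 0.03. A response to less yki and a response to this lower bon level cannot be told apart in these samples.

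Total counts ran from 37137136 to 39690537 in Bon+yki-RNAi libraries and from 38754394 to 48485542 in Bon libraries. Log CPM values correlated at 0.996 to 0.997 across genes within a group and at 0.988 to 0.990 between groups. Of the variance, 67.3% lay on a principal component that separated the genotypes, and the second component, with 10.3%, set Bon replicate 3 apart from the other 5 libraries. Each of the 12 eye-defining markers was detected, and their summed level was 2263 to 2291 CPM in Bon+yki-RNAi and 2267 to 2326 CPM in Bon libraries. Of these 12 markers 4 rose, 3 fell and 5 passed no threshold, with log2 fold changes from -1.32 for chp to 0.69 for ct. Mitochondrial transcripts took 1.29 to 1.31% of counts with yki-RNAi and 1.15 to 1.26% without it, and none of the 30 tested mitochondrially encoded genes changed.

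Expression changed in 3388 of 10852 tested genes, 31.2% of them. Of these, 1575 rose in Bon+yki-RNAi eyes (14.5% of tested genes) and 1813 fell (16.7%). Changes were mostly small. Only 306 genes (2.82%) passed the test with a log2 fold change of 1 or more in size, 129 of them rises and 177 falls. The median log2 fold change of all tested genes was -0.000364. These shares are the background against which the count of each gene list below is read.

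**Figure D1:**
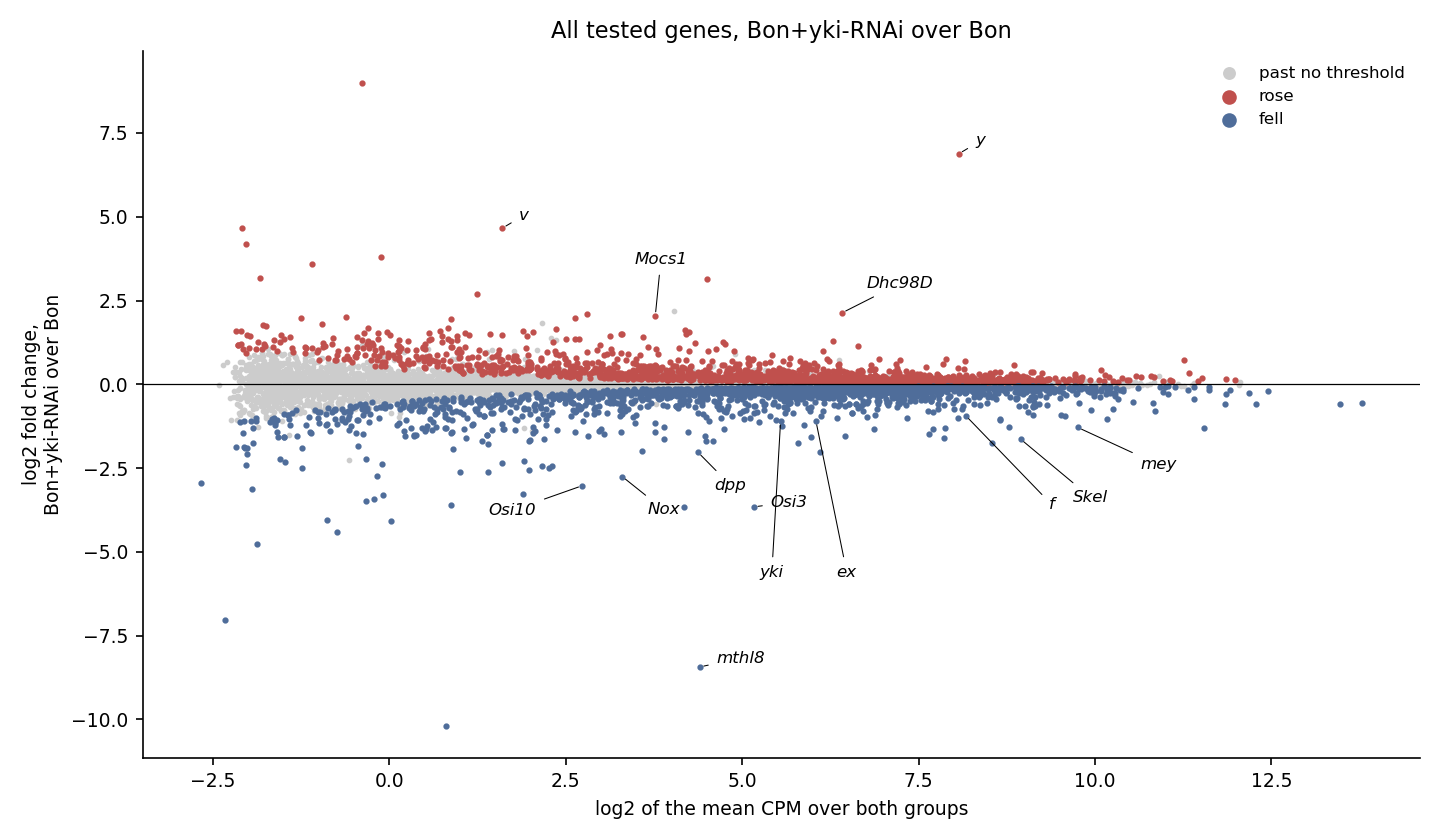
Log2 fold change of each tested gene (vertical axis, Bon+yki-RNAi over Bon) against the log2 of its mean CPM over both groups (horizontal axis), with rises in red, falls in blue and genes past no threshold in grey. Most of the 3388 called genes lie within 1 of the zero line, while y, v, mthl8 and the Osiris genes Osi3 and Osi10 lie far from it.

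Falls outnumbered rises among the Hippo pathway components. The list has 31 members, all tested: 13 fell, 3 rose and 15 passed no threshold, with a median log2 fold change of -0.07. The 13 falls include the RNAi target yki, whose fall was set by the design. The gene ex (FBgn0004583, 2L, 431227 to 448701), which encodes a FERM-domain protein that restrains Yki and is itself a known Yki target, had 42.1, 42.5 and 42.3 CPM in Bon+yki-RNAi eyes, against 90.8, 95.1 and 83.4 CPM in Bon eyes. No Bon+yki-RNAi library reached the lowest Bon library, and the log2 fold change was -1.09 ± 0.04 (adjusted p = 2.5e-08), close to that of yki itself. The scaffold gene kibra, also a known Yki target, had 145, 142 and 149 CPM in Bon+yki-RNAi eyes, against 198, 201 and 195 CPM in Bon eyes, a log2 fold change of -0.45 ± 0.02. The atypical cadherin ft, an upstream receptor of the pathway, had 261, 251 and 269 CPM in Bon+yki-RNAi eyes, against 412, 405 and 385 CPM in Bon eyes (-0.62 ± 0.03).

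Other genes that act with ft were called in both directions or passed no threshold. The gene of its cadherin partner ds fell by a log2 fold change of -0.36 ± 0.03, that of the myosin dachs by -0.35 ± 0.04, that of the Golgi kinase fj by -0.26 ± 0.05, that of the F-box protein Fbxl7 by -0.43 ± 0.04 and lft by -0.16 ± 0.03. The genes app (0.06 ± 0.02) and dco (0.06 ± 0.02) passed no threshold, and Zyx, on chromosome 4, rose by 0.14 ± 0.03. Of the kinase cassette, wts fell by -0.12 ± 0.03, while hpo (0.04 ± 0.02), sav (-0.08 ± 0.04) and mats (-0.01 ± 0.02) passed no threshold. The DNA-binding partner sd had a log2 fold change of 0.07 ± 0.02, a slight rise whose call was lost without any 1 library other than Bon replicate 2. The third rise of the list was Sik2 (0.08), whose call was lost without Bon replicate 2 or Bon+yki-RNAi replicate 1 or 3. The lesser members of this paragraph were named to describe the branches of the pathway and were picked with their values known.

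The canonical Yki targets did not move as 1 block. Of 15 targets, 14 were tested (the bantam precursor mir-ban had too few counts), and 9 fell, 3 rose and 2 passed no threshold, against background shares of 16.7% and 14.5%. The median log2 fold change was -0.14. Besides ex and kibra, the caspase inhibitor Diap1 had 429, 433 and 435 CPM in Bon+yki-RNAi eyes, against 504.4, 507 and 496 CPM in Bon eyes, a log2 fold change of -0.22 ± 0.02. CycE, the cyclin of S-phase entry, had 15.4, 15.9 and 16.4 CPM with yki-RNAi and 20.3, 20.6 and 18.5 CPM without it (-0.32 ± 0.05). The 3 that rose were vn, an EGFR ligand, wg, a Wnt ligand, and Myc, a growth regulator. For vn the libraries held 21.8, 21.1 and 20.7 CPM in Bon+yki-RNAi eyes, against 13.2, 13.8 and 11.5 CPM in Bon eyes, a log2 fold change of 0.72 ± 0.06 (adjusted p = 5.2e-06). For wg and Myc the log2 fold changes were 0.40 ± 0.04 and 0.17 ± 0.03. Of the exon bases of Myc, 61.2% overlap other genes, so its value is uncertain. The list shares ex, kibra, Mer, fj and crb with the Hippo list.

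**Figure D2:**
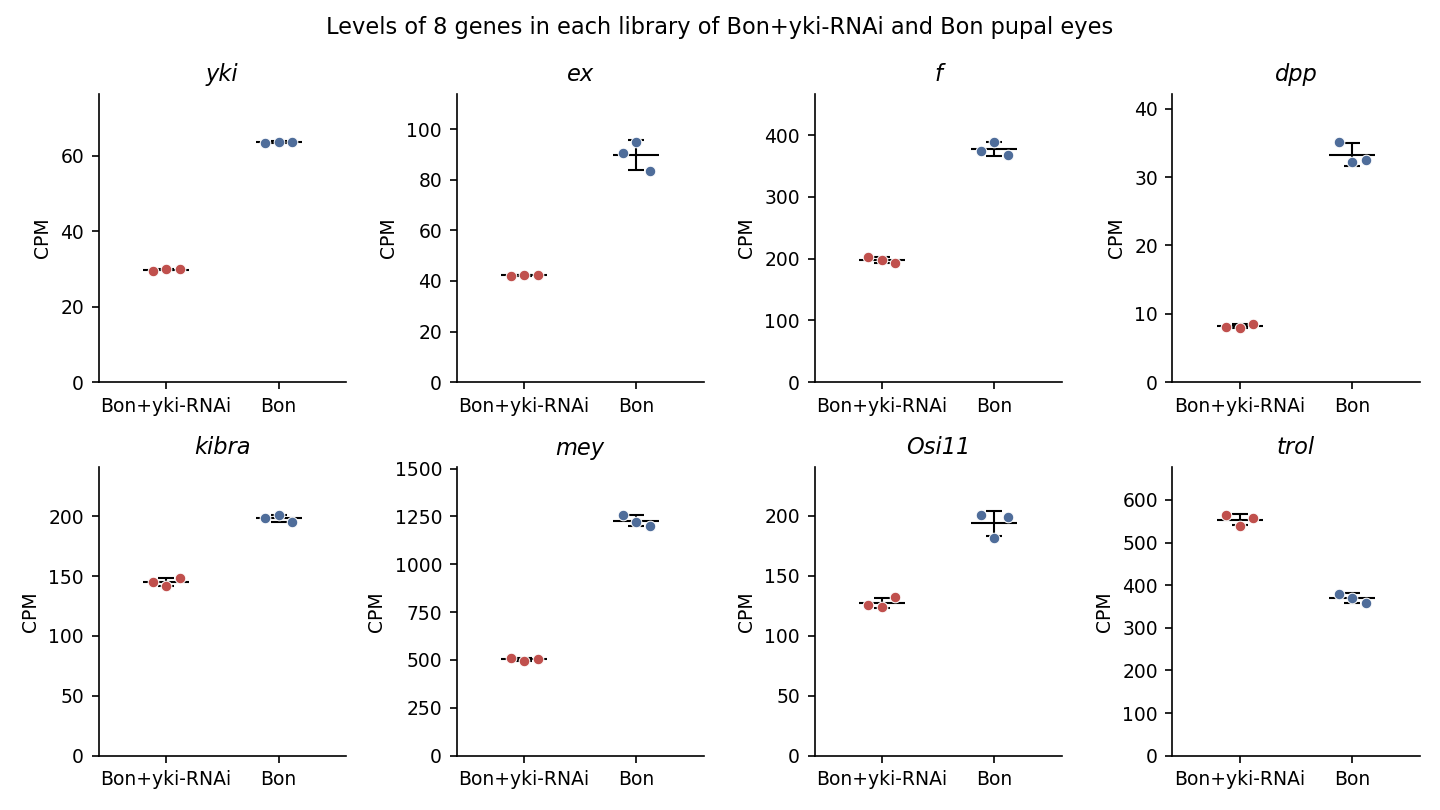
CPM of 8 genes in each of the 3 Bon+yki-RNAi libraries (red, left) and the 3 Bon libraries (blue, right), with the mean and SD in black and axes that start at 0. Of the 8, yki, ex, f, dpp, kibra, mey and Osi11 are lower in Bon+yki-RNAi eyes, and trol is higher.

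Genes that build trichomes were mostly lower in Bon+yki-RNAi eyes. The list of trichome regulators and actin effectors has 24 members, of which 23 were tested: 15 fell, 4 rose and 4 passed no threshold, with a median of -0.28. The actin-bundling gene f (FBgn0262111, X, 17232942 to 17280964) had 203, 198 and 193 CPM in Bon+yki-RNAi eyes, against 375, 389.7 and 368 CPM in Bon eyes. Its log2 fold change was -0.93 ± 0.03 (adjusted p = 6.9e-10), and the lowest Bon library held far more than the highest Bon+yki-RNAi library. The locus that encodes the trichome master regulator Shavenbaby, listed as ovo, averaged 88.7 ± 2.03 CPM in Bon+yki-RNAi eyes and 114.9 ± 15.2 CPM in Bon eyes (SD, n = 3 each), a log2 fold change of -0.38 ± 0.10. That call was lost without Bon replicate 1 or any 1 Bon+yki-RNAi library, and products of other promoters of the locus cannot be told apart in gene counts.

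Below that regulator, sha, which is needed for hair formation, fell by a log2 fold change of -1.27 ± 0.05. The wing-hair gene mwh, which restricts where hairs start, had 251, 248 and 250.4 CPM in Bon+yki-RNAi eyes, against 361, 375 and 387 CPM in Bon eyes (-0.58 ± 0.03). Smaller falls were seen for the bundling protein gene sn (-0.20), for jv (-0.54), for the myosin gene ck (-0.23) and for the profilin gene chic (-0.22). The general actin regulators tsr (-0.04 ± 0.02) and Moe (-0.02 ± 0.02) passed no threshold. The rises were y, given with the stock markers below, SoxN (0.47 ± 0.07), which acts beside Shavenbaby, cyr (0.19) and spir (0.13). Apart from f and mwh, members of this paragraph were named with their values known.

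ZP-domain genes, which encode the matrix that shapes the apical surface under each trichome, had the largest share of falls of any list with 9 or more tested members. Of 12 members, 11 were tested and 9 fell, 1 rose and 1 passed no threshold, with a median log2 fold change of -0.58. The gene mey had 512, 494 and 503 CPM in Bon+yki-RNAi eyes, against 1257, 1223 and 1201 CPM in Bon eyes, the largest change of the list at -1.29 ± 0.02 (adjusted p = 1.3e-11). The gene neo had 921, 922 and 914 CPM in Bon+yki-RNAi eyes, against 1504, 1606 and 1494 CPM in Bon eyes (-0.74 ± 0.03). The gene m had 168, 159 and 166 CPM with yki-RNAi and 270.0, 284 and 273 CPM without it (-0.74 ± 0.03), and nyo had 446, 429 and 456 CPM with yki-RNAi and 708, 669.9 and 687 CPM without it (-0.63 ± 0.03). In each of these 4 the highest knockdown library lay below the lowest Bon library. They were named for the smallest p of the list, so that property is no result. The exceptions were cyr, which rose by 0.19 ± 0.02, and dyl, which had 22.03 ± 2.54 CPM in Bon+yki-RNAi eyes and 27.1 ± 5.29 CPM in Bon eyes and passed no threshold. Of the 12 members, 9 also belong to the trichome list.

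Planar polarity genes, which orient hairs and ommatidia, had more falls than rises. All 18 were tested, and 10 fell, 1 rose and 7 passed no threshold, with a median of -0.19. Part of this count is genes described above, such as ft, ds and mwh. Within the Frizzled core, fz fell by -0.23 ± 0.03, Vang by -0.22 ± 0.03 and dgo by -0.23 ± 0.04, whereas stan (-0.02 ± 0.03) and pk (-0.09 ± 0.04) passed no threshold. The single rise was dsh (0.07 ± 0.03), with a call that was lost without any 1 library.

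Of the septate junction genes, which encode the paracellular barrier of epithelia, 13 of 25 fell by small amounts. All 25 were tested, with 13 falls, 1 rise (dlg1) and 11 past no threshold, and a median of -0.11. The cell adhesion gene Cont had 625, 625 and 640.4 CPM in Bon+yki-RNAi eyes, against 751, 760.2 and 717 CPM in Bon eyes (-0.24 ± 0.03). The Ly6 gene crok had 72.0, 74.7 and 73.1 CPM with yki-RNAi and 86.5, 84.9 and 85.1 CPM without it (-0.22 ± 0.03). The claudin gene kune had 135, 134 and 136 CPM with yki-RNAi and 161, 156 and 153 CPM without it (-0.22 ± 0.03), and the transferrin-like gene Tsf2 had 293, 294 and 296 CPM with yki-RNAi and 348, 342 and 330.5 CPM without it (-0.21 ± 0.02). The falls of these 4 were small, and in each of them the libraries of the genotypes did not overlap. Since the 4 were named for the smallest p of the list, that property is no result.

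**Figure D3:**
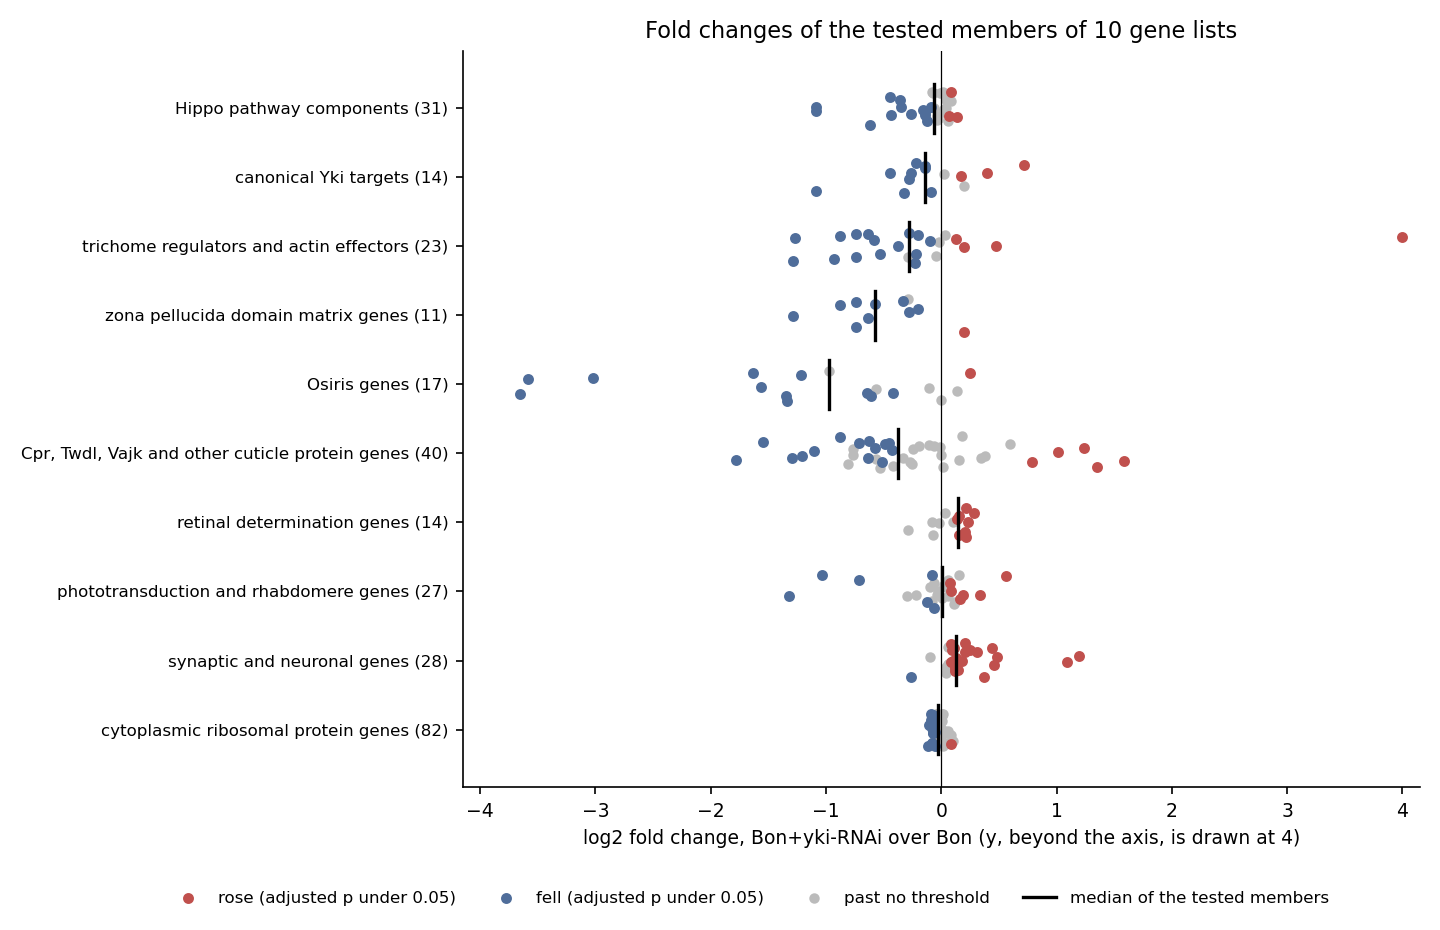
Log2 fold changes (horizontal axis, Bon+yki-RNAi over Bon) of the tested members of 10 gene lists, 1 point per gene, with rises in red, falls in blue, members past no threshold in grey and the median as a black bar. Members of the ZP-domain, Osiris and cuticle protein lists lie mostly left of zero, while those of the retinal determination and synaptic lists lie mostly right of it by small amounts.

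The Osiris genes, a cluster of insect-specific membrane protein genes on 3R that are active in cuticle-forming epithelia, held some of the largest falls. Of 24 members 17 were tested, and 11 fell, 1 rose (Osi6) and 5 passed no threshold, with a median log2 fold change of -0.98. The 7 others had too few counts, 2 of them (Osi14 and Osi15) none at all. Osi3 had 8.04, 3.21 and 4.46 CPM in Bon+yki-RNAi eyes, against 47.7, 68.7 and 83.5 CPM in Bon eyes, a log2 fold change of -3.66 ± 0.41 (adjusted p = 0.0039). Its 3 knockdown libraries differed widely among themselves. Each lay below the lowest Bon library, but Osi3 was named by a rule that asks for this, so that property is no result. Osi10 had 1.19, 1.154 and 2.07 CPM in Bon+yki-RNAi eyes, against 12.1, 12.9 and 10.7 CPM in Bon eyes (-3.02 ± 0.17).

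Further along the cluster, Osi7 had 14.9, 14.3 and 16.1 CPM with yki-RNAi and 35.8, 39.4 and 39.8 CPM without it (-1.34 ± 0.06). Osi11, the most abundant of the named members, had 126, 124 and 132 CPM with yki-RNAi and 201, 182 and 199 CPM without it (-0.61 ± 0.04). Osi17 had 21.6, 22.01 and 21.5 CPM with yki-RNAi and 31.8, 34.5 and 35.3 CPM without it (-0.64 ± 0.04). In all 3 every knockdown library lay below every Bon library, but they were named for a small p, so that property is no result. Osi1 was low in both groups, with 0.223, 0.376 and 0.239 CPM with yki-RNAi and 3.82, 3.01 and 3.35 CPM without it (-3.59 ± 0.21). The fall was not even across the cluster: Osi6 rose by 0.25 ± 0.09, with a call that was lost without any 1 library other than Bon+yki-RNAi replicate 2, and Osi5 (-0.00 ± 0.10) and Osi9 (0.14 ± 0.11) passed no threshold.

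Most cuticle protein genes of the Cpr, Twdl and Vajk kind had too few counts to be tested. Of 130 members, 90 were below the filter and 40 were tested, with 14 falls, 5 rises and 21 past no threshold and a median of -0.38. Cpr76Bc had 401, 409 and 393 CPM in Bon+yki-RNAi eyes, against 552, 546 and 515 CPM in Bon eyes (-0.42 ± 0.03). Cpr49Ah had 108, 105 and 103 CPM with yki-RNAi and 162, 172 and 155 CPM without it (-0.63 ± 0.04), and its neighbour Cpr49Ae had 33.8, 35.7 and 35.1 CPM with yki-RNAi and 49.1, 53.2 and 53.4 CPM without it (-0.57 ± 0.04). The rises were Pcp (1.35 ± 0.09), Cpr72Ec (1.24 ± 0.09), Cpr92A (1.58), Vajk4 (1.01) and Cpr62Ba (0.78), the last with a call that was lost without Bon replicate 1 or 3 or Bon+yki-RNAi replicate 1 or 3.

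Chitin genes moved in both directions. Of 26 members 22 were tested, with 9 falls and 5 rises and a median of -0.14. The chitin synthase gene kkv had 26.5, 23.1 and 26.9 CPM in Bon+yki-RNAi eyes, against 46.2, 48.5 and 45.0 CPM in Bon eyes, a log2 fold change of -0.87 ± 0.05. The chitin-binding gene obst-A had 473, 469.5 and 477 CPM with yki-RNAi and 627, 604 and 625 CPM without it (-0.39 ± 0.02). The molting chitinase gene Cht5 had 3097, 3060.1 and 3061 CPM in Bon+yki-RNAi eyes, against 1817, 1938 and 1769 CPM in Bon eyes, a rise of 0.74 ± 0.03. Idgf4, a secreted relative of chitinases, had 27.3, 24.3 and 23.8 CPM with yki-RNAi and 12.9, 11.9 and 13.5 CPM without it (0.98 ± 0.06). Cht6, Cht7 and Idgf6 also rose, by 0.65, 0.35 and 0.65, while Cht10 (-0.78) and obst-E (-1.44) fell. The call of Cht6 was lost without Bon replicate 1.

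In the tanning and melanin list, 16 of 25 members were tested, and 5 fell and 2 rose. Pu, the first enzyme of pteridine synthesis, had 100.6, 102 and 102 CPM in Bon+yki-RNAi eyes, against 146, 146 and 141 CPM in Bon eyes (-0.51 ± 0.02). The relatives of yellow, yellow-b (-1.07 ± 0.13) and yellow-c (-0.25 ± 0.04), fell, and 74.8% of the exon bases of yellow-c overlap another gene, so its value is uncertain. The rises were y and ple, the tyrosine hydroxylase gene, which was near the detection limit with 79 counts in all Bon+yki-RNAi libraries together and 22 in all Bon libraries. The symbols AANAT1, straw, po and mf of the lists matched no gene in the tables.

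The BMP ligand gene dpp fell strongly. The gene (FBgn0000490, 2L, 2428372 to 2459823) had 8.14, 7.88 and 8.53 CPM in Bon+yki-RNAi eyes, against 35.2, 32.1 and 32.5 CPM in Bon eyes. The knockdown libraries held 0.246 of the level of the Bon libraries, a log2 fold change of -2.02 ± 0.05 (adjusted p = 3.2e-10). Of the 20 tested genes of the Dpp list (22 in all), 9 fell, 3 rose and 8 passed no threshold, with a median of -0.05. Dad, the inhibitory Smad that Dpp signalling induces, had 38.8, 37.6 and 35.8 CPM in Bon+yki-RNAi eyes, against 60.7, 62.0 and 55.4 CPM in Bon eyes (-0.67 ± 0.05). The gene brk, a repressor that Dpp signalling silences, moved the opposite way with 66.9, 71.7 and 71.1 CPM in Bon+yki-RNAi eyes, against 44.4, 50.2 and 44.6 CPM in Bon eyes (0.59 ± 0.05). The glypican gene dally, whose product binds Dpp and which is also on the Yki target list, had 65.8, 66.4 and 68.7 CPM with yki-RNAi and 81.6, 79.7 and 82.0 CPM without it (-0.28 ± 0.03). The receptors sax (-0.03 ± 0.04), put (0.06 ± 0.02) and wit (-0.02 ± 0.02) and the Smads Mad (-0.07 ± 0.03) and Med (0.01 ± 0.02) passed no threshold.

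Wnt ligands moved in both directions. All 22 members of the Wingless list were tested, with 9 rises, 4 falls and 9 past no threshold and a median of 0.02. Wnt2 had 1.04, 1.25 and 1.12 CPM in Bon+yki-RNAi eyes, against 6.18, 7.29 and 6.80 CPM in Bon eyes, a log2 fold change of -2.57 ± 0.12. Wnt6 had 10.3, 11.1 and 9.43 CPM with yki-RNAi and 5.59, 5.27 and 4.29 CPM without it (1.02 ± 0.10). Notum, a secreted lipase that inactivates Wnt ligands and is a known Wg target, had 38.5, 37.2 and 36.7 CPM with yki-RNAi and 25.1, 25.6 and 23.8 CPM without it (0.59 ± 0.04). Ligands thus differed in direction, with Wnt2 lower and Wnt6 and wg higher in the knockdown. The nuclear effector gene pan, on chromosome 4, had 566, 539 and 563 CPM with yki-RNAi and 489, 474 and 474 CPM without it (0.21 ± 0.02). Another Wg target, nkd, fell by -0.31 ± 0.05.

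For EGFR signalling, 24 of 25 members were tested, with 9 rises, 4 falls and a median of 0.04. The feedback inhibitors sty and aos rose together: sty had 384, 382 and 385 CPM in Bon+yki-RNAi eyes, against 309, 318 and 316 CPM in Bon eyes (0.29 ± 0.02) and aos had 73.5, 73.9 and 74.6 CPM with yki-RNAi and 61.3, 61.7 and 62.6 CPM without it (0.26 ± 0.03). The intramembrane protease gene ru had 129, 126 and 129 CPM with yki-RNAi and 92.8, 102 and 91.9 CPM without it (0.42 ± 0.04), and vn was given above. The receptor gene Egfr fell by -0.36 ± 0.03, while the ligand spi (-0.02 ± 0.03) and the kinase rl (0.04 ± 0.03) passed no threshold.

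Notch-responsive genes of the Enhancer of split and Bearded complexes were sparse, with 9 of 16 tested. Of these, 4 rose, 2 fell and 3 passed no threshold. E(spl)mdelta-HLH, a bHLH repressor, had 17.8, 18.5 and 16.2 CPM in Bon+yki-RNAi eyes, against 6.49, 6.83 and 6.35 CPM in Bon eyes (1.42 ± 0.06). E(spl)m3-HLH had 40.1, 41.4 and 36.9 CPM with yki-RNAi and 19.6, 21.3 and 18.4 CPM without it (1.00 ± 0.06). E(spl)m2-BFM had 10.7, 11.3 and 10.04 CPM with yki-RNAi and 5.82, 6.50 and 5.12 CPM without it (0.87 ± 0.08). The Bearded relative Tom fell, with 10.4, 11.3 and 9.94 CPM with yki-RNAi and 14.9, 17.0 and 14.5 CPM without it (-0.55 ± 0.07).

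**Figure D4:**
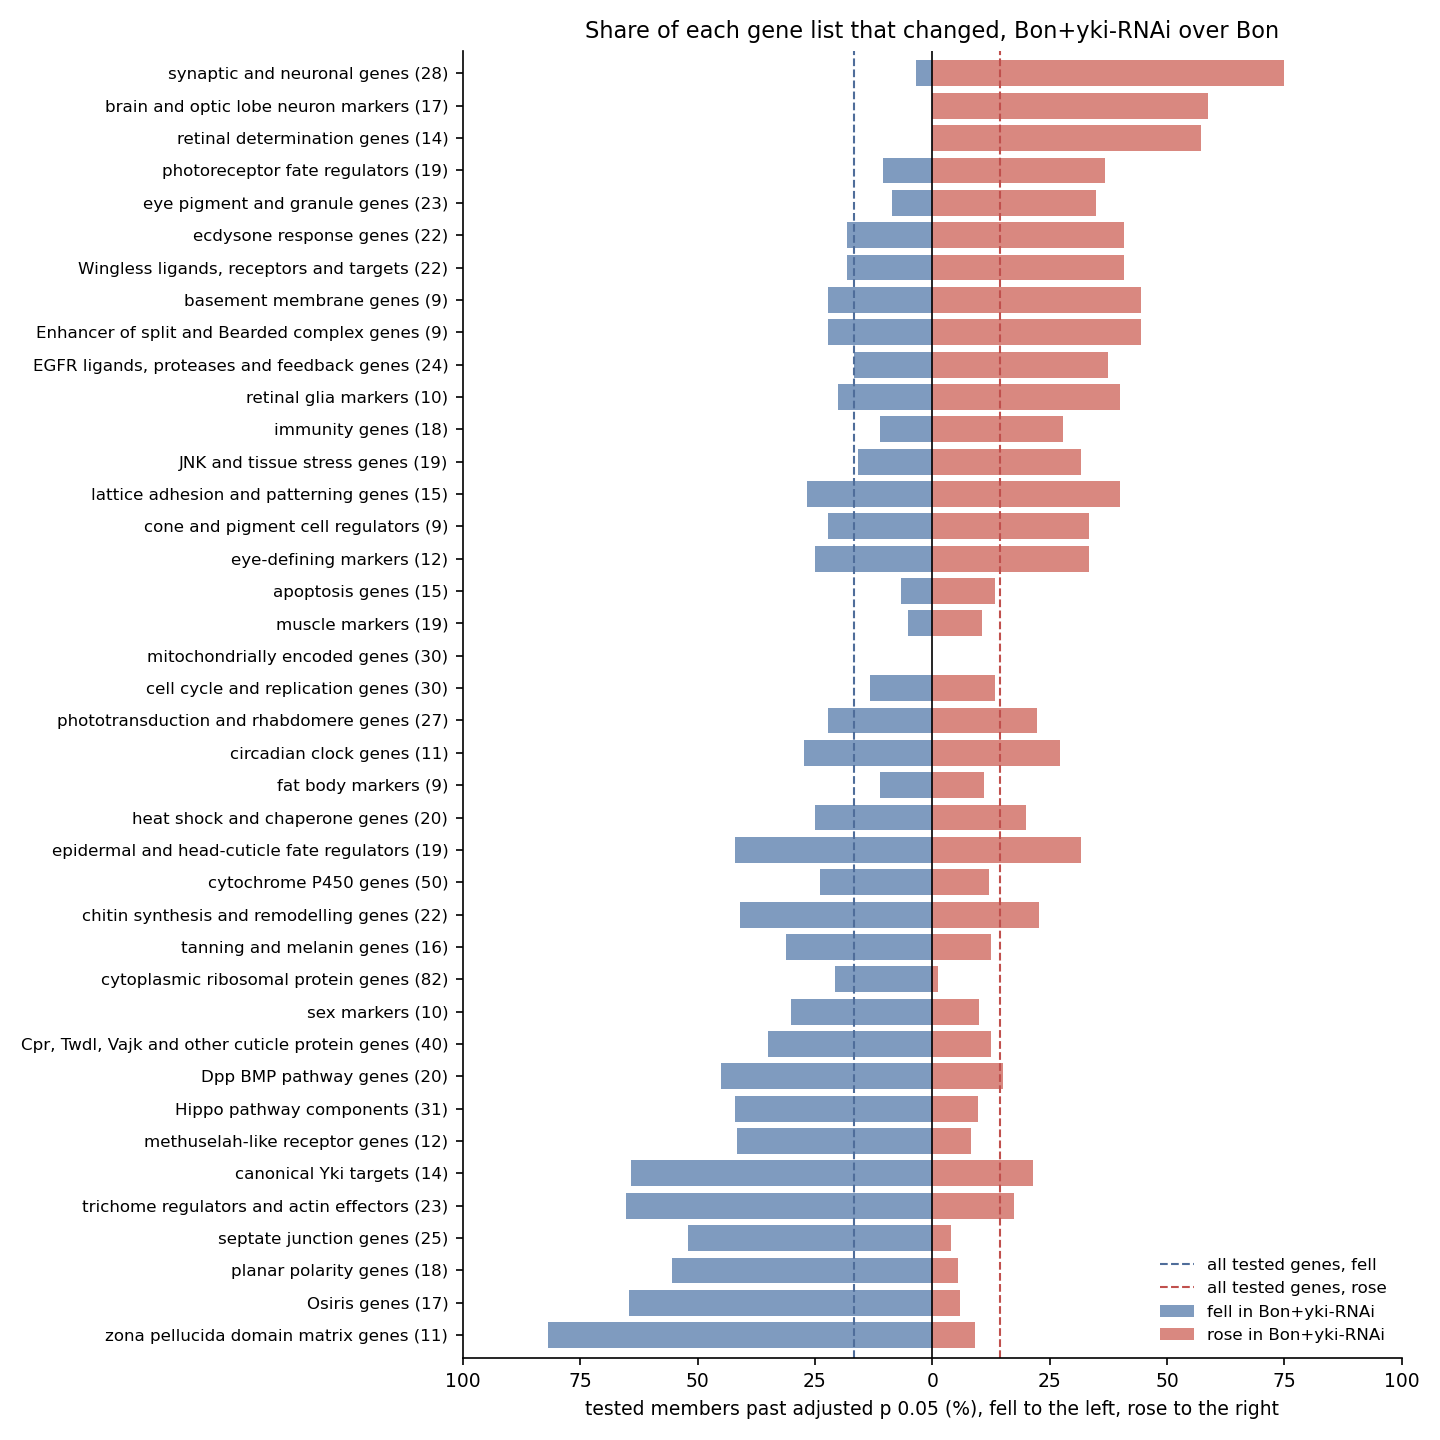
Percent of the tested members of each gene list that fell (blue, left) or rose (red, right) in Bon+yki-RNAi over Bon eyes, for lists with at least 9 tested members, whose number stands in brackets. Dashed lines mark the shares over all tested genes, 16.7% falls and 14.5% rises. The ZP-domain list has the largest share of falls and the synaptic list the largest share of rises.

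Some genes that specify the eye rose by small amounts. Of 15 retinal determination genes 14 were tested, and 8 rose, none fell and 6 passed no threshold, with a median log2 fold change of 0.14. The Pax6 genes ey and toy had 88.4, 88.0 and 87.2 CPM in Bon+yki-RNAi eyes, against 78.2, 80.1 and 81.3 CPM in Bon eyes (0.14 ± 0.03) and, for toy, 162, 171 and 164 CPM with yki-RNAi and 141, 152 and 134 CPM without it (0.22 ± 0.04). The related gene eyg had 35.3, 34.96 and 35.3 CPM with yki-RNAi and 29.5, 32.2 and 28.0 CPM without it (0.23 ± 0.05). The nuclear cofactors eya (0.22 ± 0.05) and dac (0.21 ± 0.06) and the homeobox gene Optix (0.28 ± 0.07) also rose, while so (-0.02 ± 0.03) and gl (-0.07 ± 0.03) passed no threshold. The calls of eya, dac and Optix were lost without Bon+yki-RNAi replicate 3, and also without Bon replicate 1 for eya, Bon+yki-RNAi replicate 1 for dac and Bon+yki-RNAi replicate 2 for Optix. The count of rises was 5 without Bon+yki-RNAi replicate 1 and also 5 without Bon+yki-RNAi replicate 3. The genes ey and toy lie on chromosome 4, where 42 of 96 tested genes rose.

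Photoreceptor fate regulators (19 tested) had 7 rises and 2 falls. The pan-neuronal gene elav had 460.4, 461 and 451 CPM in Bon+yki-RNAi eyes, against 393, 401 and 417 CPM in Bon eyes (0.18 ± 0.02), and onecut had 269, 267 and 266 CPM with yki-RNAi and 249, 244 and 243 CPM without it (0.12 ± 0.02). The falls were boss, the ligand that R8 presents to R7, with 124, 131 and 141 CPM with yki-RNAi and 165, 168 and 171 CPM without it (-0.35 ± 0.04), and melt, which acts in the choice of R8 subtype, with 59.4, 58.0 and 56.6 CPM with yki-RNAi and 83.7, 93.5 and 77.2 CPM without it (-0.55 ± 0.07). In cone and pigment cells, the homeobox gene ct, a marker of cone cells, had 353, 348 and 356 CPM in Bon+yki-RNAi eyes, against 205, 214 and 233 CPM in Bon eyes, a rise of 0.69 ± 0.04. The Pax2 gene sv had 55.0, 55.8 and 54.3 CPM with yki-RNAi and 41.0, 44.1 and 37.9 CPM without it (0.42 ± 0.05), and lz fell, with 210.1, 206 and 195 CPM with yki-RNAi and 222, 231 and 215 CPM without it (-0.13 ± 0.03). In that list 9 of 10 members were tested, with 3 rises and 2 falls. Both onecut and sv lie on chromosome 4, where 42 of 96 tested genes rose.

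Among lattice genes, which place the interommatidial cells, 6 of 15 rose and 4 fell. The nephrin-like genes sns and hbs rose, sns with 68.1, 66.0 and 67.2 CPM in Bon+yki-RNAi eyes, against 51.7, 53.3 and 53.9 CPM in Bon eyes (0.34 ± 0.03) and hbs with a log2 fold change of 0.18 ± 0.03. The adhesion gene ed fell, with 1027, 1011 and 1046 CPM with yki-RNAi and 1226, 1356 and 1195 CPM without it (-0.29 ± 0.04). In the pigment list, 23 of 25 members were tested, and 8 rose and 2 fell. The rises v, w and Mocs1 stand with the stock markers below, and the others ran from 0.12 for p to 0.70 for se, whose call was lost without Bon+yki-RNAi replicate 2 or 3.

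Phototransduction genes gave 6 rises and 6 falls among 27 tested of 32, with a median of 0.01. The rhodopsin genes ninaE, Rh2, Rh3 and Rh4 had 14 or fewer counts in either group and were not tested. The falls were led by chp, whose product chaoptin holds rhabdomere microvilli together, with 115.04, 116 and 126 CPM in Bon+yki-RNAi eyes, against 304, 278 and 313 CPM in Bon eyes, a log2 fold change of -1.32 ± 0.05 (adjusted p = 1.5e-06). The channel gene trp fell by -0.71 ± 0.09. The rises included Gbeta76C, the eye-specific G protein beta subunit, with 135, 134 and 137 CPM in Bon+yki-RNAi eyes, against 93.2, 93.1 and 88.4 CPM in Bon eyes (0.56 ± 0.03), and ninaC, a myosin kinase, with 404, 409 and 412 CPM with yki-RNAi and 325, 331 and 316 CPM without it (0.33 ± 0.02). Galphaq also rose (0.19 ± 0.02), with 45.8% of its exon bases shared with another gene.

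Synaptic and neuronal genes had the most frequent rises, at small size. All 28 were tested, with 21 rises, 1 fall and 6 past no threshold, and a median of 0.13. Syt4, a vesicle protein gene, had 473, 477 and 479 CPM in Bon+yki-RNAi eyes, against 404, 416 and 417 CPM in Bon eyes (0.21 ± 0.02), and cpx, the complexin gene, had 829.6, 832 and 834 CPM with yki-RNAi and 757, 755 and 772 CPM without it (0.13 ± 0.02). The single fall was unc-13 (-0.26 ± 0.02), a release factor gene on chromosome 4. Of the exon bases of unc-13, 28.1% overlap 3 genes on the opposite strand, so its value is uncertain. Of these 3, only CR43361 was called, with a fall of -1.05 ± 0.10. This count of rises was 13 without Bon replicate 1, 12 without Bon+yki-RNAi replicate 1, 13 without Bon+yki-RNAi replicate 2 and 12 without Bon+yki-RNAi replicate 3. Markers of brain and optic lobe neurons moved with these genes: 10 of 17 tested rose and none fell, with a median of 0.46. Their summed level over 20 members was 332 to 338 CPM in Bon+yki-RNAi and 239 to 295 CPM in Bon libraries. Only tll of the 20 was at or under the level of 3 counts in each library. Whether neurons carried along in the dissection take part in the rises of neuronal genes was not tested.

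The number of brain markers called as rises was lower without any 1 library other than Bon replicate 3, and higher without that one. The count of all changed genes moved the same way in these fits. The count of rises among brain markers was 4 without Bon replicate 1, 5 without Bon replicate 2, 3 without Bon+yki-RNAi replicate 1, 4 without Bon+yki-RNAi replicate 2 and 4 without Bon+yki-RNAi replicate 3. The transcription factor gene D had 4.62, 4.44 and 4.198 CPM in Bon+yki-RNAi eyes, against 1.05, 1.16 and 2.75 CPM in Bon eyes (1.46 ± 0.33), and bsh, a gene of optic lobe neurons, had 53.7, 53.7 and 52.96 CPM with yki-RNAi and 45.7, 41.8 and 47.1 CPM without it (0.25 ± 0.04). The transmitter genes ChAT (0.37 ± 0.08) and Gad1 (1.09 ± 0.29) also rose. The call of D was lost without Bon replicate 2 or any 1 Bon+yki-RNAi library, and that of Gad1 without Bon replicate 1 or Bon+yki-RNAi replicate 1 or 2. In Bon replicate 3, D and Gad1 stood above the other 2 Bon libraries.

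Markers of other tissues were detected as well, at summed levels that differed between tissues. Among hemocyte markers, 4 of 7 tested fell and none rose, and He had no count in any library. NimC4, a phagocytosis receptor gene, had 7.25, 6.68 and 7.39 CPM in Bon+yki-RNAi eyes, against 10.7, 9.91 and 9.96 CPM in Bon eyes (-0.52 ± 0.07), and srp had 2.31, 2.13 and 2.07 CPM with yki-RNAi and 3.40, 3.25 and 3.43 CPM without it (-0.63 ± 0.10). Hml (-0.63 ± 0.21) and NimC1 (-0.60 ± 0.19) fell at low levels, NimC1 with a call that was lost without any 1 library and Hml with a call that was lost without any 1 library other than Bon+yki-RNAi replicate 2. The summed level of the 9 hemocyte markers was 248 to 261 CPM in Bon+yki-RNAi and 222 to 258 CPM in Bon libraries. Among retinal glia markers, 4 of 10 tested rose and 2 fell, and the glial regulators gcm and gcm2 lay at or under 3 counts in each library. Their summed level was 1578 to 1645 CPM with yki-RNAi and 1500 to 1584 CPM without it.

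Muscle markers rose in 2 and fell in 1 of 19 tested. They summed to 810.0 to 858 CPM in Bon+yki-RNAi and 710.5 to 789 CPM in Bon libraries. Fat body markers rose in 1 and fell in 1 of 9 tested, and summed to 87.0 to 93.7 CPM in Bon+yki-RNAi and 106 to 117 CPM in Bon libraries. Of the sex markers, the male-specific RNA roX1 had 533, 652 and 827 CPM in Bon+yki-RNAi eyes, against 749.8, 809 and 734 CPM in Bon eyes and passed no threshold, and Sxl rose by 0.19 ± 0.02. The sex-determination factors dsx, with 41.2, 41.8 and 41.3 CPM with yki-RNAi and 63.2, 63.0 and 55.8 CPM without it (-0.55 ± 0.05), and fru, with 134, 134 and 139 CPM with yki-RNAi and 330.4, 390.4 and 287 CPM without it (-1.31 ± 0.13), both fell, as did the yolk protein gene Yp3 (-0.85 ± 0.07). The part of tissue or sex makeup in these results was not tested.

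Basement membrane genes rose in 4 and fell in 2 of 9. The perlecan gene trol had 564, 538 and 557 CPM in Bon+yki-RNAi eyes, against 380.2, 369.8 and 358 CPM in Bon eyes (0.58 ± 0.03, adjusted p = 3.0e-08). The papilin gene Ppn moved the other way, with 599, 584 and 590.0 CPM with yki-RNAi and 725, 738 and 675 CPM without it (-0.27 ± 0.03), and the laminin gene LanB1 fell by -0.16 ± 0.03. Among regulators of epidermal and head-cuticle fate, 19 of 21 were tested, with 8 falls and 6 rises. The Hedgehog ligand hh had 39.8, 37.4 and 42.5 CPM in Bon+yki-RNAi eyes, against 52.4, 52.6 and 53.7 CPM in Bon eyes (-0.41 ± 0.04), and its receptor and target ptc had 286, 279 and 289 CPM with yki-RNAi and 395, 369 and 353 CPM without it (-0.39 ± 0.04). The epidermal factors pnr (-0.71 ± 0.21) and grh (-0.47 ± 0.05) fell too, named with their values known, and the call of pnr was lost without Bon replicate 1 or 2 or Bon+yki-RNAi replicate 1 or 3. The Iroquois gene ara rose, with 58.3, 52.1 and 53.6 CPM with yki-RNAi and 43.1, 43.1 and 41.1 CPM without it (0.37 ± 0.04), as did caup (0.28) and mirr (0.26). Of 13 proneural and bristle genes, 6 were tested, with 2 rises (neur and sca) and 2 falls (Su(H) and nompA), and 83.0% of the exon bases of neur overlap another gene. The call of sca was lost without Bon replicate 1 or Bon+yki-RNAi replicate 1 or 3, and that of nompA without any 1 library other than Bon replicate 2.

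Cell cycle and apoptosis genes were called at shares near or under those over all tested genes, in both directions. Cell cycle and replication genes had 4 rises and 4 falls among 30 tested, shares near the background, with a median of -0.01. The Cdk inhibitor gene dap had 32.0, 35.7 and 30.3 CPM in Bon+yki-RNAi eyes, against 23.9, 24.2 and 22.02 CPM in Bon eyes, a rise of 0.48 ± 0.06, beside the fall of CycE. Replication genes such as Mcm2 (-0.04 ± 0.19) and Mcm6 (-0.02 ± 0.06) passed no threshold. Of 15 tested apoptosis genes, 2 rose and 1 fell: the inducer hid rose by 0.21 ± 0.05, Dark by 0.08 ± 0.03, and Diap1 fell. The call of hid was lost without Bon+yki-RNAi replicate 2 or 3, that of Dark was lost under 9 alternatives, and 80.2% of its exon bases overlap another gene. Cytoplasmic ribosomal protein genes fell in 17 and rose in 1 of 82 tested, with a median of -0.03. The stalk gene RpLP0 had 773, 769.7 and 771 CPM in Bon+yki-RNAi eyes, against 840.3, 832 and 833 CPM in Bon eyes (-0.11 ± 0.02). With upper-quartile scaling 8 ribosomal protein genes fell.

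The JNK and tissue stress list had 6 rises and 3 falls among 19 tested. The TNF ligand gene egr had 135, 138 and 137 CPM in Bon+yki-RNAi eyes, against 98.3, 108 and 93.0 CPM in Bon eyes (0.45 ± 0.05), while its receptor genes grnd (-0.15 ± 0.04) and wgn (-0.12 ± 0.03) fell slightly, wgn with a call that was lost without Bon replicate 2 or Bon+yki-RNAi replicate 3. Heat shock and chaperone genes had 4 rises and 5 falls among 20. The ER chaperone Hsc70-3 had 2449.8, 2392 and 2380.0 CPM with yki-RNAi and 2698, 2679.7 and 2668 CPM without it (-0.16 ± 0.02), and the near-identical Hsp70 copies could not be counted apart with certainty. The neighbouring peptidoglycan receptor genes PGRP-LC, PGRP-LA and PGRP-LF on 3L rose together. PGRP-LC had 28.2, 29.3 and 27.7 CPM in Bon+yki-RNAi eyes, against 10.1, 9.58 and 9.20 CPM in Bon eyes (1.56 ± 0.05), PGRP-LA had 73.8, 75.0 and 71.6 CPM with yki-RNAi and 55.1, 51.5 and 53.5 CPM without it (0.46 ± 0.03), and PGRP-LF rose by 1.54 ± 0.16 with 47.6% of its exon bases in common with a neighbour. The soluble receptor PGRP-SA fell, with 7.87, 6.65 and 6.19 CPM with yki-RNAi and 16.3, 15.7 and 14.1 CPM without it (-1.15 ± 0.09). The antimicrobial peptide genes Drs, AttB, CecC and Def passed no threshold. Of 28 immunity genes 18 were tested, with 5 rises and 2 falls.

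Among ecdysone response genes, 9 rose and 4 fell of 22 tested. The falls were led by ImpE1, with 510.0, 513 and 513 CPM in Bon+yki-RNAi eyes, against 947, 983 and 938 CPM in Bon eyes (-0.90 ± 0.02, adjusted p = 2.0e-10), and the apical protein gene ImpE2, with 2900.2, 2922 and 2908 CPM with yki-RNAi and 4415, 4496 and 4328 CPM without it (-0.60 ± 0.02). ImpL2, a secreted antagonist of insulin-like peptides, rose, with 101.3, 95.1 and 97.6 CPM with yki-RNAi and 68.9, 66.5 and 63.5 CPM without it (0.56 ± 0.03), and the nuclear receptor gene Eip78C rose by 0.25 ± 0.02. Of 11 clock genes, 3 rose and 3 fell. Clk, the activator of the clock loop, had 9.83, 9.06 and 10.8 CPM in Bon+yki-RNAi eyes, against 2.39, 1.85 and 3.35 CPM in Bon eyes (1.99 ± 0.17). Its target tim had 92.1, 90.9 and 94.3 CPM with yki-RNAi and 72.3, 69.4 and 70.6 CPM without it (0.39 ± 0.03), the photoreceptor gene cry rose by 0.25 ± 0.03, and the repressor gene cwo fell by -0.22 ± 0.03. Of 50 tested P450 genes 12 fell and 6 rose. The fall with the smallest p was Cyp9b2, with 19.95, 20.4 and 18.3 CPM with yki-RNAi and 33.8, 36.1 and 31.5 CPM without it (-0.79 ± 0.06).

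The largest changes by size were picked by rule, as the 12 largest rises and the 12 largest falls among called, named genes with a mean of at least 5 CPM and no overlap between the groups. Since the rule asks for no overlap, that property is no result. The falls that this rule took outside the lists above were led by mthl8, a methuselah-like receptor gene, with 0.149, 0.1 and 0.106 CPM in Bon+yki-RNAi eyes, against 44.1, 37.3 and 45.0 CPM in Bon eyes. Over all 3 libraries of each group it had 14 counts with yki-RNAi and 5516 without it. For mthl8, what follows yki-RNAi and what follows the stock cannot be told apart. Nox, the NADPH oxidase gene, had 2.33, 2.46 and 2.87 CPM in Bon+yki-RNAi eyes, against 19.1, 15.6 and 16.8 CPM in Bon eyes (-2.75 ± 0.10). Both mthl8 and Nox were near or under 3 CPM in each knockdown library. The serine protease gene Sp7 had 4.79, 4.94 and 4.68 CPM with yki-RNAi and 17.1, 21.2 and 18.9 CPM without it (-1.99 ± 0.09). The odorant-binding protein gene Obp56a was abundant and had 166, 183 and 163 CPM with yki-RNAi and 559.7, 639 and 521 CPM without it (-1.75 ± 0.09).

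Further falls reached out, with 25.3, 26.6 and 24.4 CPM with yki-RNAi and 85.5, 88.6 and 81.3 CPM without it (-1.74 ± 0.04), the neuropeptide receptor gene Dh31-R, with 11.3, 11.5 and 11.4 CPM with yki-RNAi and 37.2, 39.0 and 34.3 CPM without it (-1.69 ± 0.05), and tpr, with 9.70, 8.88 and 13.3 CPM with yki-RNAi and 32.3, 38.6 and 31.5 CPM without it (-1.69 ± 0.16). Skel had 235, 240.1 and 246 CPM with yki-RNAi and 729.6, 781 and 725 CPM without it (-1.63 ± 0.03). D1, which encodes an AT-hook protein that binds satellite DNA, had 114, 117 and 113 CPM in Bon+yki-RNAi eyes, against 351, 354 and 347 CPM in Bon eyes (-1.61 ± 0.02, adjusted p = 2.0e-12), the smallest p among these 12 falls. Under the same minimum of 5 CPM, the CG-named genes with the largest falls were CG14218 (-2.02 ± 0.04), CG12206 (-1.64 ± 0.08) and CG4914 (-1.54 ± 0.15).

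Among the rises, the dynein heavy chain gene Dhc98D had 145, 131 and 141 CPM in Bon+yki-RNAi eyes, against 31.6, 28.3 and 35.4 CPM in Bon eyes (2.13 ± 0.08). Gnpnat, an enzyme gene of the hexosamine pathway that supplies chitin, had 37.7, 38.0 and 37.3 CPM with yki-RNAi and 15.9, 15.9 and 14.9 CPM without it (1.27 ± 0.04). Pcp had 8.93, 7.63 and 7.84 CPM with yki-RNAi and 3.13, 3.40 and 3.03 CPM without it (1.35 ± 0.09), Cpr72Ec had 27.0, 25.8 and 31.9 CPM with yki-RNAi and 12.9, 11.3 and 11.5 CPM without it (1.24 ± 0.09), and the glutamine synthetase gene Gs2 had 6.28, 7.23 and 7.60 CPM with yki-RNAi and 2.44, 2.61 and 3.87 CPM without it (1.26 ± 0.16). Of the 12 rises, zld and nAChRalpha6 lost their calls in several of the fits that left out 1 library. The gene zld had 17.7, 10.5 and 5.53 CPM in Bon+yki-RNAi eyes, against 2.60, 2.46 and 2.82 CPM in Bon eyes (2.11 ± 0.54, adjusted p = 0.0472), with a wide range among the knockdown libraries, and its call was lost without Bon replicate 1, 2 or 3 or Bon+yki-RNAi replicate 2. The acetylcholine receptor gene nAChRalpha6 had 26.9, 27.0 and 27.6 CPM in Bon+yki-RNAi eyes, against 6.64, 6.59 and 16.002 CPM in Bon eyes (1.52 ± 0.38, adjusted p = 0.0444), and its call was lost without any 1 library other than Bon replicate 3. Under the same minimum of 5 CPM and no overlap, the CG-named genes with the largest rises were CG14989 (1.65 ± 0.42), CG10184 (1.44 ± 0.07) and CG13857 (1.36 ± 0.08), and the call of CG14989 was lost without Bon replicate 2 or any 1 Bon+yki-RNAi library.

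Some of the largest differences fall on genes used as visible markers of fly stocks. The pigment gene y (FBgn0004034, X, 356509 to 361245) had 525, 529 and 544 CPM in Bon+yki-RNAi eyes, against 4.12, 4.81 and 4.68 CPM in Bon eyes, a log2 fold change of 6.88 ± 0.04. The eye colour gene v had 5.66, 5.92 and 5.95 CPM in Bon+yki-RNAi eyes, against 0.294, 0.176 and 0.209 CPM in Bon eyes (4.66 ± 0.16), and w had 301, 289 and 306 CPM in Bon+yki-RNAi eyes, against 179.7, 184 and 162 CPM in Bon eyes (0.77 ± 0.05). Rescue copies of y and v are standard markers of Bloomington RNAi lines, and copies of w mark many other transgenes. Mocs1, which lies beside an insertion site commonly used for such lines, had 21.3, 21.7 and 22.8 CPM in Bon+yki-RNAi eyes, against 4.85, 5.05 and 6.17 CPM in Bon eyes (2.04 ± 0.08). In these genes, what follows yki-RNAi and what follows the stock cannot be told apart.

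Outside that set, and named with their values known, ftz had 181 counts over the Bon+yki-RNAi libraries and 0 over the Bon libraries. CG3397 had 0 counts over the Bon+yki-RNAi libraries and 460 over the Bon libraries. The noncoding RNA gene CR40469 had 39.5, 42.0 and 40.5 CPM in Bon+yki-RNAi eyes, against 4.75, 4.59 and 4.29 CPM in Bon eyes. Mrgn1 had 45.7, 44.7 and 44.9 CPM with yki-RNAi and 129.8, 133 and 131 CPM without it (-1.54 ± 0.03). The near-identical neighbours p24-2 (-2.50 ± 0.09) and Unc-115b (-2.43 ± 0.09) fell in parallel, but they share exons and their reads cannot be told apart. For the genes of this paragraph too, what follows yki-RNAi and what follows the stock cannot be told apart.

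The share of changed genes differed between chromosomes. Of tested genes, 34.5% changed on 3L and 34.4% on 3R, compared with 26.3% on 2L, 26.8% on 2R and 32.3% on X. Log2 fold changes of 1 or more in size made up 3.97% on 3L and 3.75% on 3R, compared with 1.86% on 2L, 1.81% on 2R and 2.45% on X. Chromosome 3 thus held 185 of the 306 larger changes. The genotype lists the RNAi construct opposite the GAL4 driver, so the chromosomes that face the driver differ between the groups. Responses to yki and differences between those chromosomes cannot be told apart. Without the genes of chromosome 3, 748 rose and 926 fell among 6045 tested.

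**Figure D5:**
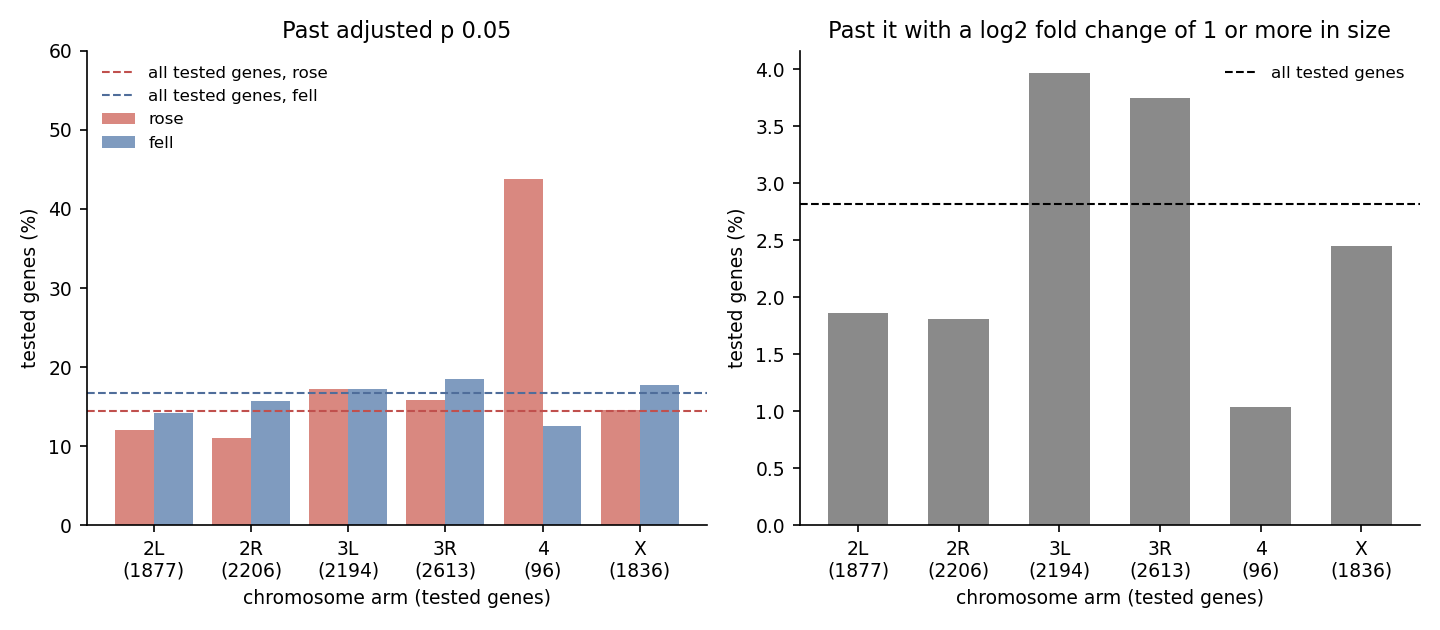
Left, percent of tested genes on each chromosome arm that rose (red) or fell (blue) in Bon+yki-RNAi over Bon eyes, with dashed lines at the shares of all tested genes. Right, percent with a log2 fold change of 1 or more in size, with a dashed line at 2.82%, which 3L and 3R exceed, and tested genes per arm in brackets.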

How the data were processed

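RNA-seq counts of 6 pupal eye libraries were compared, 3 Bon+yki-RNAi and 3 Bon, grouped by sample title. Per the labels' protocols, libraries were made with an mRNA isolation module and read as pairs of 150 nt. The submitters' processing notes name the build BDGP6 and, with no role or order, STAR 2.7.0e, Bowtie2 2.3.5.1, featureCounts (Subread 1.6.2), cutadapt 2.9 and DESeq2 1.30.1. Strandedness, and how a read shared by several genes was counted, were not given in the sources used here. The deposited values are estimated counts per gene that need not be whole, and 40.3 to 42.4% of the values of a library had a decimal part, so genes with overlapping exons or near-identical copies are uncertain. The authors also deposited a table of their own comparison with log2 fold changes and adjusted p-values, per the file headers, whose 6 columns of values per sample were not used.

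Counts were rounded to whole numbers. Genes were filtered with filterByExpr (minimum count 10), scaled by TMM and tested two-sided with the robust quasi-likelihood test of edgeR 4.0.16 in R 4.3.3, with genotype as the only term. The script was tested on simulated data. At these depths 3 counts correspond to 0.0619 to 0.0808 CPM before scaling, for counting error only. The members and the 43 gene lists were chosen with earlier results of these data known, so no list is independent support. No list was tested as a set. Each is described by its counts and its median beside all tested genes. The rule for named genes took yki, bon, ex, f and dpp, the 12 largest rises and 12 largest falls described above, 3 CG-named genes per direction, 4 members per list, by smallest p, and stock and sex markers. Other genes are marked, or stand in a list of rises or falls, and were chosen after their values were seen. Alternatives were upper-quartile and RLE scaling, no low-count filter, DESeq2 1.42.0, all 9 libraries in 1 fit, a replicate block, no genes of chromosome 3, and leaving out each library. Gene positions come from the count tables (BDGP6). Gene symbols were matched for 17252 of 17558 identifiers.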

Additional observations from a re-analysis of the deposited data

How the results depend on the processing

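The count of changed genes was 2618 with DESeq2, 3054 with all 9 libraries in 1 fit, 3285 without the low-count filter, 3352 with RLE scaling and 3379 with upper-quartile scaling. The share of rises among calls was 54.4% with upper-quartile scaling and 46.5% in the reported fit. Leaving out 1 library gave 2537 to 3513 changed genes, 1132 to 1698 rises, 1400 to 1815 falls and 278 to 371 larger changes. Same-numbered libraries did not deviate together (correlations of 0.11, -0.01 and 0.03), and a replicate block gave 3492 changed genes. Without the genes of chromosome 3, which leaves 6045 tested, 1674 genes changed (748 rises, 926 falls, 117 larger changes). By construction lists then lost members: 8 Hippo components, 4 Yki targets, 9 trichome genes, 7 septate junction genes and 0 Osiris genes fell, and 5 retinal determination genes, 9 synaptic genes and 6 brain neuron markers rose. Without the low-count filter 5 retinal determination genes and 6 brain neuron markers rose, and with all 9 libraries 13 synaptic genes and 4 brain neuron markers, for which the cause was not tested. Leaving out 1 library gave 5 to 8 rises of retinal determination genes, 12 to 22 of synaptic genes and 3 to 12 of brain neuron markers. Of 177 tested named genes 167 were called, 148 of them under every alternative that gave a value, 19 lost the call under at least 1 and none reversed. Most named genes were picked for a large change or a small p, so that count is no result. Of all 3388 calls, 2553 were also made with DESeq2, and 2466 to 3090 when 1 library was left out. Of the calls in the authors' deposited table, 2602 concern genes tested here, and 2539 of these were called here in the same direction. Calls made here among the same genes numbered 3388. Both comparisons rest on the same libraries, so the overlap is no independent support.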

Other observations

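On chromosome 4 rises outnumbered falls. Of 96 tested genes there, 42 rose (43.8%) and 12 fell (12.5%), beside 14.5% rises and 16.7% falls over all tested genes, and the median log2 fold change was 0.09. Across the alternatives that were run, 36 to 44 genes of the chromosome rose and the median lay between 0.08 and 0.10. The changes were small: 1 of the 54 called genes had a log2 fold change of 1 or more in size. The rises with the smallest p were CG32017, which averaged 106 ± 1.57 CPM in Bon+yki-RNAi eyes and 84.6 ± 1.52 CPM in Bon eyes, and CG11360, which averaged 548 ± 3.84 and 465 ± 1.82 CPM in the same groups. The falls included CG31997, with 41.5 ± 0.807 CPM in Bon+yki-RNAi and 57.8 ± 1.34 CPM in Bon eyes, and unc-13. The cause was not tested.

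The mCherry libraries enter no comparison here and also carry a transgene with a Bloomington number. Levels of y, v, Mocs1 and mthl8 follow for all groups, with all 9 libraries scaled together. The gene y had 513, 518 and 532 CPM in Bon+yki-RNAi, 4.06, 4.76 and 4.59 CPM in Bon and 676, 676 and 669 CPM in mCherry eyes. For v these were 5.53, 5.80 and 5.83 CPM in Bon+yki-RNAi, 0.29, 0.174 and 0.205 CPM in Bon and 58.4, 62.6 and 56.9 CPM in mCherry eyes. Mocs1 had 20.8, 21.2 and 22.3 CPM in Bon+yki-RNAi, 4.78, 4.99 and 6.05 CPM in Bon and 22.1, 20.9 and 21.1 CPM in mCherry eyes. For the receptor gene mthl8 the levels were 0.146, 0.0983 and 0.104 CPM in Bon+yki-RNAi, 43.4, 36.8 and 44.1 CPM in Bon and 0.0257, 0.0857 and 0.0888 CPM in mCherry eyes. For these 4 genes every Bon library lay outside the range of the mCherry and Bon+yki-RNAi libraries, and for v and y every Bon+yki-RNAi library also lay below every mCherry library. Genotype and stock cannot be told apart.

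Bon replicate 3 had higher levels than the other Bon libraries for nAChRalpha6, with 6.54, 6.51 and 15.7 CPM in Bon replicates 1, 2 and 3, and for CG14989, with 1.28, 1.91 and 4.33 CPM, on the same 9-library scaling. In mCherry eyes, replicate 3 was also the highest for both, with 10.4, 9.04 and 23.6 CPM for nAChRalpha6 and 4.43, 3.21 and 7.43 CPM for CG14989. These genes were chosen after their values were seen.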
